A study of Arabidopsis thaliana with 6 samples.

Results

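The chloroplast keeps a small genome of its own, which encodes core subunits of the thylakoid complexes of photosynthesis, the large subunit of Rubisco and part of the NDH complex. The genes examined here are those of the Arabidopsis thaliana plastid genome whose symbols begin with psa (photosystem I), psb (photosystem II), pet (cytochrome b6f complex), atp (chloroplast ATP synthase), ndh (NDH complex) or rbcL (Rubisco), taken where a probe set of the array, the group of oligonucleotides that reports 1 transcript, is paired with a single gene. This gave 43 probe sets for 43 genes among 22746 probe sets, 15 of them for photosystem II, 10 for NDH, 6 each for cytochrome b6f and ATP synthase, 5 for photosystem I and 1 for Rubisco. The rule used genome and symbol only, and was set with earlier results of these data known. Of the 45 plastid gene copies with such a symbol, the 2 left out are both copies of ndhB, whose shared probe set is paired with more than 1 gene.

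RNA came from whole 2-week-old plants of the ceh1 mutant and of its parent line, about 20 plants being collected, with 3 biological replicates and 3 arrays per genotype. Both groups grew on 1/2 MS medium (Murashige and Skoog salts) at 23 °C under days of 8 h light and 16 h dark. They also shared 60% humidity, light of 100 to 150 µE and 2 days of cold. The mutant group is a single line, with no second allele or complemented line beside it. The gene hit in ceh1 is HDS, whose enzyme makes isoprenoid precursors in the plastid, and the comparison asks how the mutant's transcriptome differs from the parent's.

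Photosystem II splits water and passes electrons through plastoquinone and cytochrome b6f to photosystem I, and the ATP synthase uses the proton gradient this builds across the thylakoid. The NDH complex returns electrons from ferredoxin to plastoquinone, while Rubisco fixes carbon dioxide. Plastid genes are mostly transcribed as groups from a shared promoter, by a plastid-encoded RNA polymerase that needs sigma factors from the nucleus and by nucleus-encoded phage-type polymerases, and their RNAs are processed and stabilised by nuclear proteins. The remaining subunits of these complexes are encoded in the nucleus.

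Measured differences in plastid-encoded photosynthesis transcripts between the genotypes were small with quantile normalization, which the values here use, and larger with median scaling. None of the 43 genes passed the test in either direction (limma, adjusted p under 0.05 over all probe sets tested), against 3.77% of the 15922 probe sets tested, 1.15% lower and 2.62% higher in ceh1. At an unadjusted p under 0.05, 7 of the 43 were lower in ceh1 and 0 higher, or 16.3% lower against 11.5% of all probe sets tested, which were higher in 9.41%. With array weights, which count arrays that depart from the others less, 3 of the 43 passed, all lower, at a background of 5.53% lower. The log2 fold change was below 0 in 34 of 43 genes, against 53.3% of all probe sets tested, and its median was −0.17 against −0.03. With quantile normalization the 95% interval of the difference lay within a 2-fold change either way for 39 of the 43. The same held for 9378 of the 15922 probe sets tested. At a mean log2 signal of 11 or over it held for 287 of 353 probe sets, members included, and for all 24 members. All 43 genes passed the filter on dim probe sets.

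The size of this shift hung on how the arrays were brought to a common level. The deposited signals were not on 1 level, with trimmed mean intensities between 109.8 and 175.7. The values here are quantile normalised, which gives probe sets of the same rank on each array the same value. A given probe set can still differ between arrays where its rank differs. Most members rank among the brightest probe sets, since the median member lay at the 98.8th percentile of mean signal. With median scaling, which multiplies each array by 1 factor, the median over members was −0.39, the median over all probe sets tested was −0.06 and 41 of 43 genes were below 0, petN and petG being the exceptions. Without normalization the medians were −0.12 and 0.21, so that the members lay 0.33 below all probe sets, against 0.34 below with median scaling and 0.14 below with quantile normalization. No member passed with either of these other scalings. With median scaling 275 of the 15922 probe sets tested, or 1.73%, passed as lower and 421 as higher. Without normalization only 61 of the 15922 passed as lower and 657 as higher. The lowest adjusted p of limma among members was 0.0647 with median scaling and 0.591 without normalization.

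Other bright probe sets moved with the scaling as well. The 316 probe sets outside the plastid genome with a mean log2 signal of 11 or over had a median log2 fold change of −0.04 with quantile normalization and −0.33 with median scaling. The 24 members in that class had −0.11 and −0.42. Of the bright members 75% and 100% were below 0, against 53.5% and 77.5% of the 316. For dimmer members, 19 in number, the medians were −0.18 and −0.32. Probe sets outside the plastid genome at 9 to 11 had 0 and −0.10, and those tested and under 9 had −0.04 and −0.04. Median scaling thus lowered bright probe sets of either genome, while member medians lay below those of the other probe sets with both scalings. The source of either difference was not tested.

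**Figure D1:**
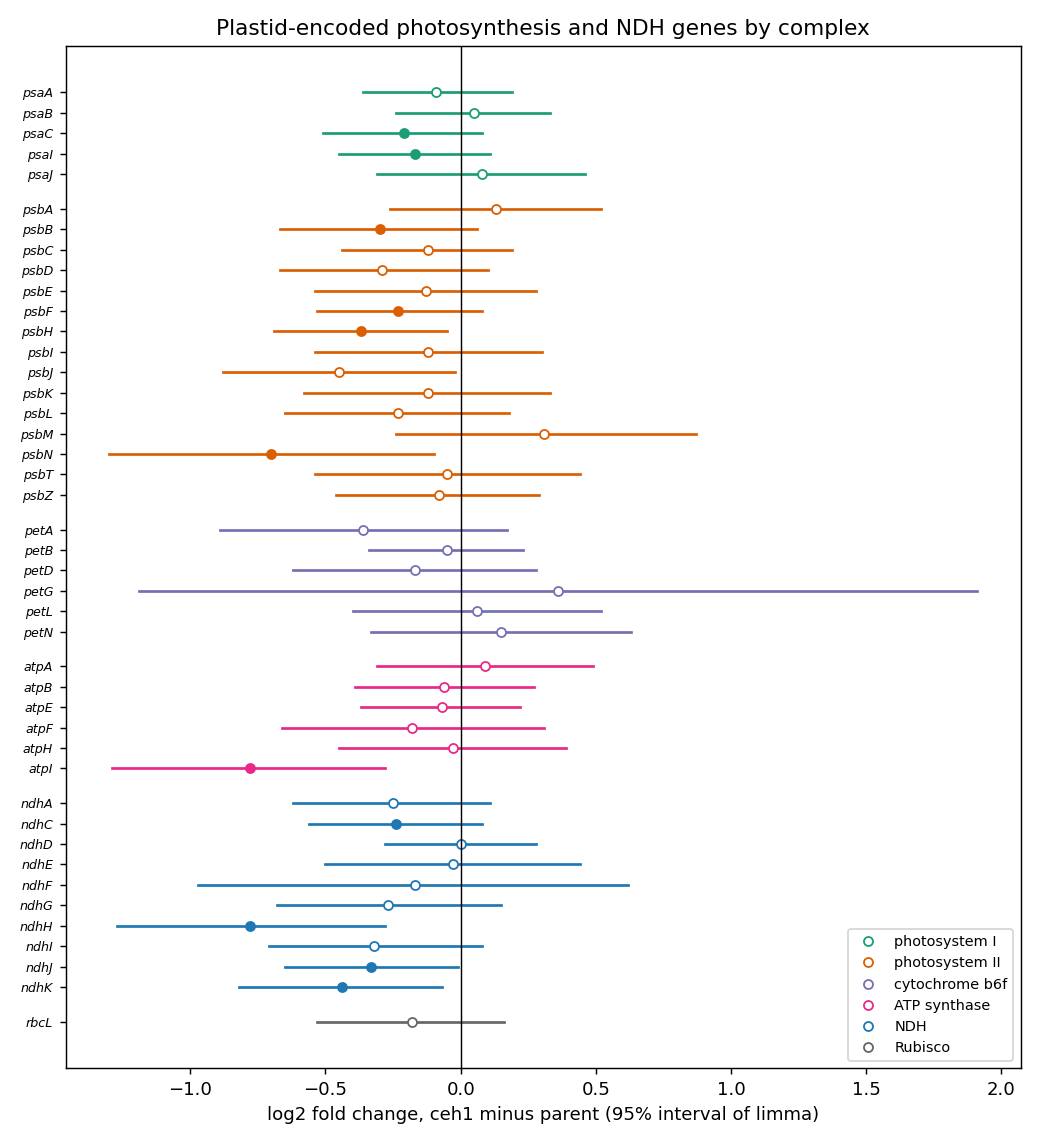
Log2 fold change, ceh1 minus parent, of all 43 genes on the x axis, grouped by complex. Bars are 95% intervals of limma, and filled points mark the 11 genes whose ceh1 arrays all lay below all parent arrays, none of which passed after adjustment over all probe sets.

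With quantile normalization, photosystem I genes showed the narrowest range of all complexes with more than 1 member. Their log2 fold changes ran from −0.21 to 0.08 around a median of −0.09, which median scaling moved to −0.39. psaA and psaB encode the reaction centre heterodimer that binds P700. The log2 signal of psaA on parent replicates 1, 2 and 3 was 12.66, 12.49 and 12.61, against 12.48, 12.56 and 12.45 on ceh1 replicates 1, 2 and 3. That of psaB was 12.95, 12.89 and 13.18 in the parent against 13.05, 13.05 and 13.04 in ceh1. The genotypes overlapped for both genes, with log2 fold changes of −0.09 (95% interval −0.36 to 0.19) and 0.05 (95% interval −0.24 to 0.33), and the latter was −0.31 with median scaling.

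psaC encodes the subunit that holds the terminal iron-sulfur clusters of photosystem I. Its log2 signal was 11.71, 11.60 and 11.64 in the parent against 11.36, 11.53 and 11.41 in ceh1. All ceh1 arrays were below all parent arrays, as they were for the small subunit gene psaI, but the log2 fold change of psaC, −0.21 ± 0.13 (SE), did not pass (limma, adjusted p = 0.392). Across the 43 genes 11 separated in this way and 0 in the opposite way, against 15.1% and 12.4% of all probe sets tested. The 11 were psaC, psaI, psbB, psbF, psbH, psbN, atpI, ndhC, ndhH, ndhJ and ndhK. With median scaling 22 genes separated so, against 16.4% of all probe sets tested, and without normalization 0 did, against 4.13%. Separation was also more frequent among bright probe sets of other genes. Of the 316 bright probe sets outside the plastid genome, 25.6% separated with lower ceh1 arrays, close to the 25% of the 24 bright members. The share was 26.3% of the 19 dimmer members, against 18.4% of other probe sets with a mean log2 signal of 9 to 11 and 14.4% of those under 9. With median scaling the shares of the bright probe sets and bright members were 46.5% and 66.7%, and the difference between them was not tested.

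Among photosystem II genes, 13 of 15 had a log2 fold change below 0, around a median of −0.13, or −0.35 after median scaling. The reaction centre proteins D1 and D2 are the products of psbA and psbD. The log2 signal of psbA was 12.11, 12.22 and 12.57 in the parent against 12.24, 12.50 and 12.55 in ceh1, with full overlap and a log2 fold change of 0.13 (95% interval −0.26 to 0.52), or −0.21 with median scaling. psbD had 11.32, 11.51 and 11.28 in the parent against 11.28, 11.15 and 10.82 in ceh1. Only ceh1 replicate 1 reached the parent's lowest value there, and the log2 fold change of −0.29 did not pass (limma, adjusted p = 0.381). The inner antenna genes psbB (CP47) and psbC (CP43) had −0.30 and −0.12.

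psbN, whose product acts in assembly of the photosystem II reaction centre, had the lowest fold change of the complex. Its log2 signal was 7.72, 7.65 and 8.20 in the parent against 6.69, 7.40 and 7.38 in ceh1. The genotypes did not overlap, and ceh1 replicate 1 lay furthest below. The difference of −0.70 ± 0.26 (SE), or 1.63-fold lower, did not pass (limma, adjusted p = 0.181), with a 95% interval of −1.30 to −0.10.

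psbH, which encodes a small phosphoprotein needed for stable photosystem II, had 11.56, 11.55 and 11.30 in the parent against 11.14, 11.11 and 11.05 in ceh1. Its ceh1 arrays agreed closely and all lay below the parent. The log2 fold change of −0.37 ± 0.14 (SE) had an adjusted p = 0.188, and 0.0499 with array weights (limma). psbJ, a small subunit gene, had 11.47, 11.14 and 11.25 in the parent against 10.62, 11.15 and 10.75 in ceh1, so that ceh1 replicate 2 lay inside the parent range. Its log2 fold change was −0.45 ± 0.18 (SE) and did not pass (limma, adjusted p = 0.223). psbT, another small subunit gene, had 9.40, 9.45 and 9.13 in the parent, 9.0, 9.65 and 9.19 in ceh1 and a log2 fold change of −0.05, and its genotypes overlapped.

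psbM, a small subunit gene at the dimer interface, had the highest log2 fold change of the complex with quantile normalization, 0.31 (95% interval −0.24 to 0.87), which turned to −0.07 with median scaling. Its log2 signal was 12.30, 12.46 and 13.04 in the parent against 12.55, 13.08 and 13.11 in ceh1. Parent replicate 3 thus lay with ceh1 replicates 2 and 3 and apart from the other three arrays. GI, a clock gene with an evening peak, showed the same division of arrays, with log2 signals of 7.52, 7.49 and 9.56 in the parent against 7.66, 8.98 and 8.60 in ceh1. GI was the 1 of 7 evening clock genes looked for that had a single-gene probe set, and its part in the psbM values was not tested.

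**Figure D2:**
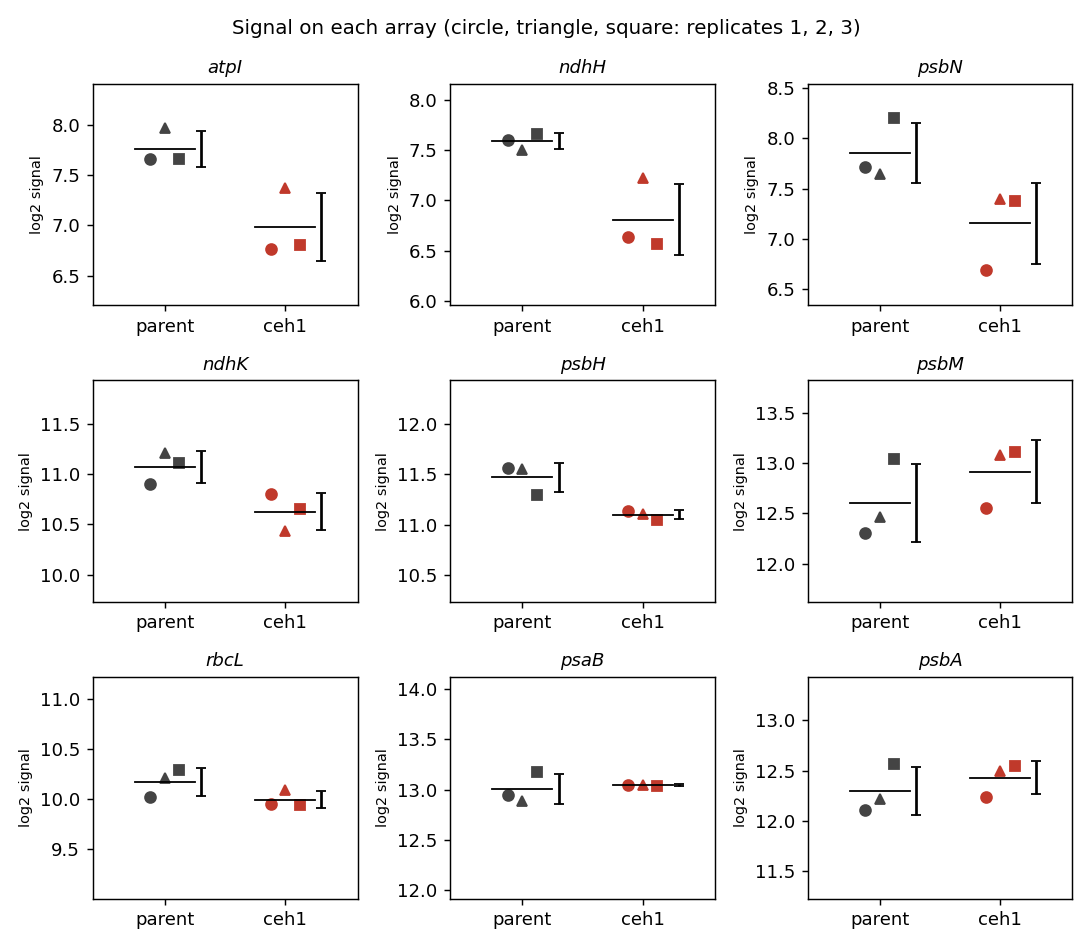
Log2 signal after quantile normalization (y axis, each panel spanning 2.2 log2 units) on the 3 parent and 3 ceh1 arrays for 9 genes. Horizontal lines are group means and the bars beside them ± SD with n = 3; atpI, ndhH, psbN, ndhK and psbH separate by genotype, while psbM, rbcL, psaB and psbA overlap.

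Cytochrome b6f genes were balanced between directions, with 3 of 6 below 0 and a median of 0.00, which was −0.14 with median scaling and 0.13 without normalization. petB encodes cytochrome b6 itself. It had 12.75, 12.75 and 12.65 in the parent against 12.80, 12.55 and 12.62 in ceh1, and its log2 fold change of −0.05 had a 95% interval of −0.34 to 0.23. petA encodes cytochrome f and had 10.43, 10.64 and 10.73 in the parent against 10.11, 10.70 and 9.91 in ceh1. Here ceh1 replicate 2 was inside the parent range and the other ceh1 arrays were below it, and the log2 fold change of −0.36 did not pass (limma, adjusted p = 0.417).

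The small subunit gene petG had the widest spread of any member. Its log2 signal was 6.12, 6.31 and 7.46 in the parent against 5.88, 6.60 and 8.49 in ceh1. Replicate 3 was the highest array of either genotype, and the log2 fold change of 0.36 had a 95% interval of −1.19 to 1.91, too wide to place the gene. petN and petL, also small subunit genes, had log2 fold changes of 0.15 and 0.06, and petD, which encodes subunit IV, had −0.17.

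With quantile normalization 5 of the 6 ATP synthase genes had log2 fold changes between −0.18 and 0.09, and atpI lay lower. atpB encodes the catalytic beta subunit, at log2 signals of 12.78, 13.11 and 12.76 in the parent against 12.87, 12.91 and 12.70 in ceh1. atpH encodes the subunit of the membrane ring, with 10.99, 11.11 and 11.57 in the parent against 11.12, 11.24 and 11.22 in ceh1. For atpH all ceh1 arrays lay inside the parent range, and for atpB only ceh1 replicate 3 lay below it. The log2 fold changes of atpB and atpH were −0.06 (95% interval −0.39 to 0.27) and −0.03 (95% interval −0.45 to 0.39), or −0.44 and −0.28 with median scaling. For atpA, atpE and atpF, which encode the alpha and epsilon subunits and a stalk subunit, the values were 0.09, −0.07 and −0.18, or −0.25, −0.47 and −0.41 with median scaling.

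atpI, which encodes the membrane subunit a that forms the proton channel, differed most. The deposited intensities were 231.7, 225.6 and 145.9 in the parent against 96.59, 201 and 133.5 in ceh1. After normalization these became log2 signals of 7.66, 7.97 and 7.66 in the parent against 6.77, 7.37 and 6.81 in ceh1. The genotypes overlapped in the deposited intensities and separated once arrays were brought to a common level. The log2 fold change of −0.78 ± 0.22 (SE), or 1.72-fold lower in ceh1, had a 95% interval of −1.29 to −0.28 and an adjusted p = 0.0997, and 0.0237 with array weights (limma). It was −0.78 with median scaling too, but −0.51 without normalization (limma, adjusted p = 0.113 and 0.595). With 1 array left out the adjusted p of atpI ran from 0.055 to 0.309 (limma). The median of the complex was −0.07, and −0.43 with median scaling.

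NDH genes had a median log2 fold change of −0.26 with quantile normalization, the lowest of the complexes with all 6 arrays in the fit, −0.43 with median scaling and −0.16 without normalization. ATP synthase had the same −0.43 and −0.16. The first place was also lost when 1 array was left out, to Rubisco (−0.26 against −0.24 for NDH) without parent replicate 1 and to photosystem II (−0.25 against −0.24) without ceh1 replicate 1. Of the 10 genes, 9 were below 0, and the 33 members outside NDH had a median of −0.12 with quantile normalization. No test was made of the difference between complexes. ndhH, a gene of the complex's hydrophilic arm, gave deposited intensities of 222, 161.4 and 146.2 in the parent against 88.27, 180.2 and 112.8 in ceh1. Its log2 signals were 7.60, 7.50 and 7.66 in the parent against 6.64, 7.22 and 6.57 in ceh1. The groups did not overlap, and ceh1 replicate 2 lay closest to the parent. The log2 fold change of −0.78 ± 0.21 (SE), or 1.71-fold lower, had a 95% interval of −1.27 to −0.28 and the lowest adjusted p of all members, 0.0959 (limma). It passed with array weights and without ceh1 replicate 2 (limma, adjusted p = 0.0177 and 0.0401). Without normalization ndhH had −0.51 and did not pass (limma, adjusted p = 0.591). Nor did it pass with any other array left out, where the adjusted p reached 0.283 (limma).

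ndhK and ndhJ encode other subunits of the same arm and lie with ndhC in 1 transcribed group. ndhK had 10.90, 11.21 and 11.11 in the parent against 10.80, 10.43 and 10.65 in ceh1, and ndhJ had 11.84, 11.97 and 11.97 in the parent against 11.43, 11.69 and 11.67 in ceh1. Each separated by genotype with a smaller difference than ndhH, at log2 fold changes of −0.44 ± 0.16 (SE) and −0.33 ± 0.14 (SE), and neither passed (limma, adjusted p = 0.181 and 0.223). With median scaling they were −0.63 and −0.61, still short of the threshold (limma, adjusted p = 0.0654 and 0.0687). ndhI, ndhG and ndhA had −0.32, −0.27 and −0.25, and ndhE had −0.03.

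The membrane-arm genes ndhD and ndhF had the brightest and the dimmest probe set of the NDH genes. ndhD had 12.60, 12.53 and 12.75 in the parent against 12.66, 12.65 and 12.58 in ceh1, a log2 fold change of 0.00 with a 95% interval of −0.28 to 0.28, and −0.37 with median scaling. ndhF was the dimmest member, with 5.09, 4.84 and 5.17 in the parent against 4.14, 5.22 and 5.22 in ceh1. Its value of −0.17 came from ceh1 replicate 1 alone, since the other ceh1 arrays lay above every parent array. The probe set shared by both copies of ndhB had a log2 fold change of −0.13 (limma, adjusted p = 0.815).

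rbcL, which encodes the large subunit of Rubisco, had 10.02, 10.21 and 10.29 in the parent against 9.95, 10.09 and 9.94 in ceh1. The genotypes overlapped by 1 array, ceh1 replicate 2 lying above parent replicate 1. Its log2 fold change was −0.18 (95% interval −0.53 to 0.16), −0.32 with median scaling and −0.05 without normalization.

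The lower ceh1 values came mainly from ceh1 replicates 1 and 3. In each of these, 26 of the 43 genes were below every parent array, against 14 in ceh1 replicate 2. Conversely 7 genes were above every parent array in ceh1 replicate 2, against 1 and 3 in ceh1 replicates 1 and 3. The same counts were not made over all probe sets, so no background stands beside them. The median over members relative to the parent mean was −0.23, −0.03 and −0.21 in ceh1 replicates 1, 2 and 3. Over all probe sets tested it was −0.03, 0 and −0.06. Without ceh1 replicate 2 the median log2 fold change of the members was −0.24, and without ceh1 replicate 3 it was −0.11. ceh1 replicate 2 also had the highest signal of the 25S ribosomal RNA control, 4598, against 1343 and 1132 in ceh1 replicates 1 and 3 and 416.9, 985.4 and 293.7 in the parent. Its part in the differences between the arrays was not tested.

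**Figure D3:**
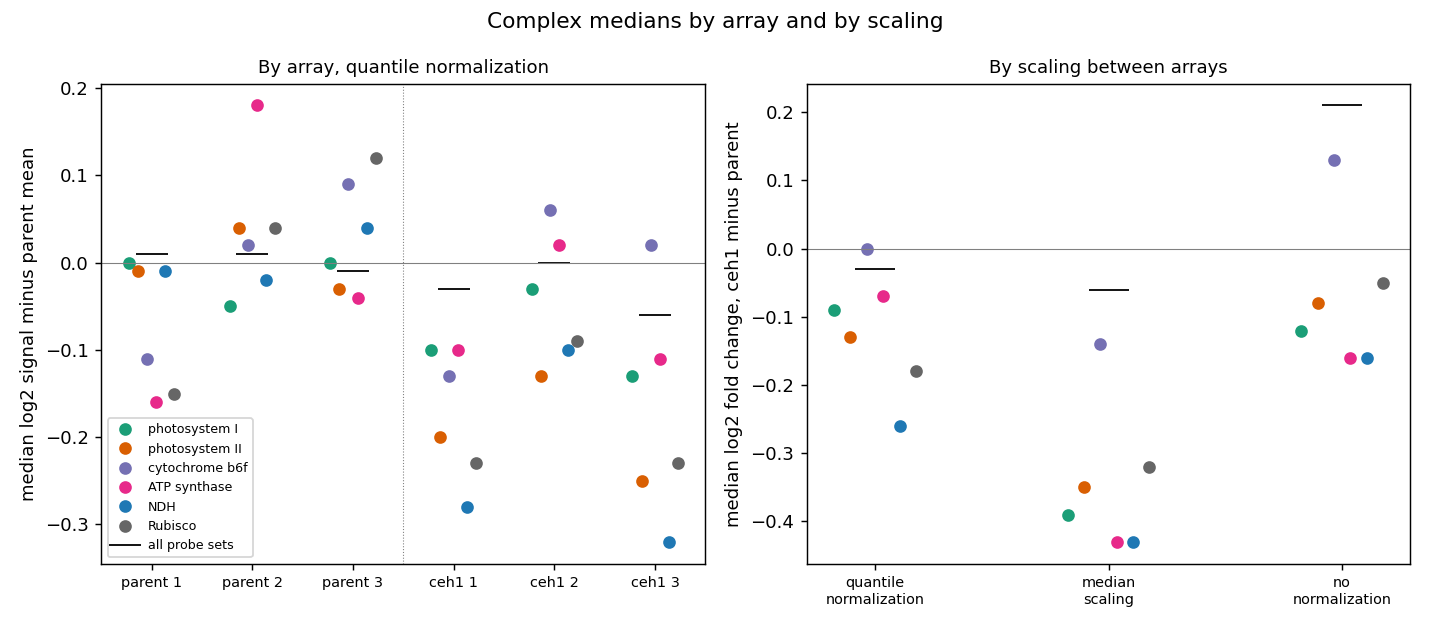
Left, median log2 signal of each complex minus its parent mean on each of the 6 arrays, after quantile normalization; right, median log2 fold change of each complex with 3 ways of scaling, with short black lines for all probe sets. The NDH point is at −0.28, −0.10 and −0.32 in ceh1 replicates 1, 2 and 3, and every complex lies below the black line of all probe sets with median scaling and without normalization.

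Large differences were found among dim members. The 8 members with a mean log2 signal under 9 held all 3 log2 fold changes of −0.70 or lower, those of atpI, ndhH and psbN, as well as the highest one, that of petG. Across the 43 genes Spearman's rho between mean log2 signal and the size of the log2 fold change was −0.43, as a description over probe sets that share the same 6 arrays. Over all 15922 probe sets tested it was −0.08. Affinity differs between probe sets, so the signal ranks probe sets and not transcript amounts, and levels are not compared between genes.

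**Figure D4:**
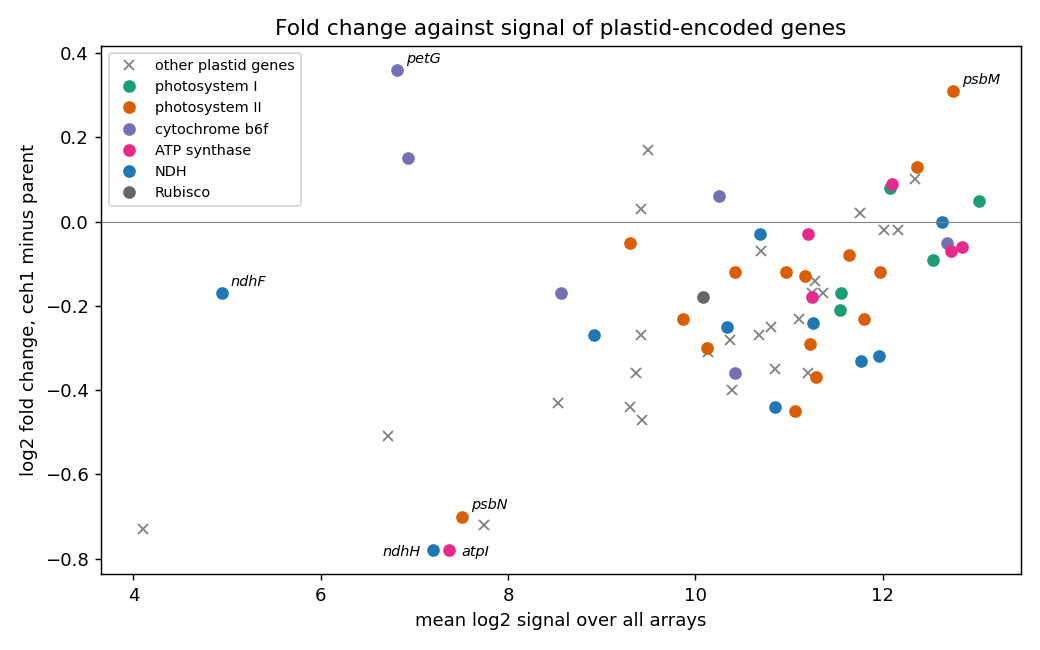
Log2 fold change, ceh1 minus parent, against mean log2 signal over the 6 arrays for the 43 genes, coloured by complex, and for 26 other plastid genes (crosses). Values lie between −0.78 and 0.36; atpI, ndhH and psbN lie lowest among the coloured points at mean signals between 7 and 8.

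Genes transcribed together did not share a single fold change in every unit. The grouping was made after the values were seen, covers 29 of the members in 8 known transcription units, and carries no test. From the start of the ndhH unit, the log2 fold changes of ndhH, ndhA, ndhI, ndhG, ndhE, psaC and ndhD were −0.78, −0.25, −0.32, −0.27, −0.03, −0.21 and 0.00. In the atpI unit, those of atpI, atpH, atpF and atpA were −0.78, −0.03, −0.18 and 0.09. In both units the gene at the start had the lowest value, and it also had the dimmest probe set. The psbE unit ran the other way with quantile normalization, at −0.13, −0.23, −0.23 and −0.45 for psbE, psbF, psbL and psbJ. With median scaling these were −0.34, −0.47, −0.35 and −0.63, so that psbJ stayed lowest but the fall was not steady. In the psbB unit psbB, psbT, psbH, petB and petD had −0.30, −0.05, −0.37, −0.05 and −0.17 and showed no order, and psbN, read from the opposite strand between psbT and psbH, had −0.70. Values lay closer together in the remaining units. These were −0.09 and 0.05 for psaA and psaB, and −0.06 and −0.07 for atpB and atpE. For psbD and psbC they were −0.29 and −0.12, and for ndhC, ndhK and ndhJ −0.24, −0.44 and −0.33.

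**Figure D5:**
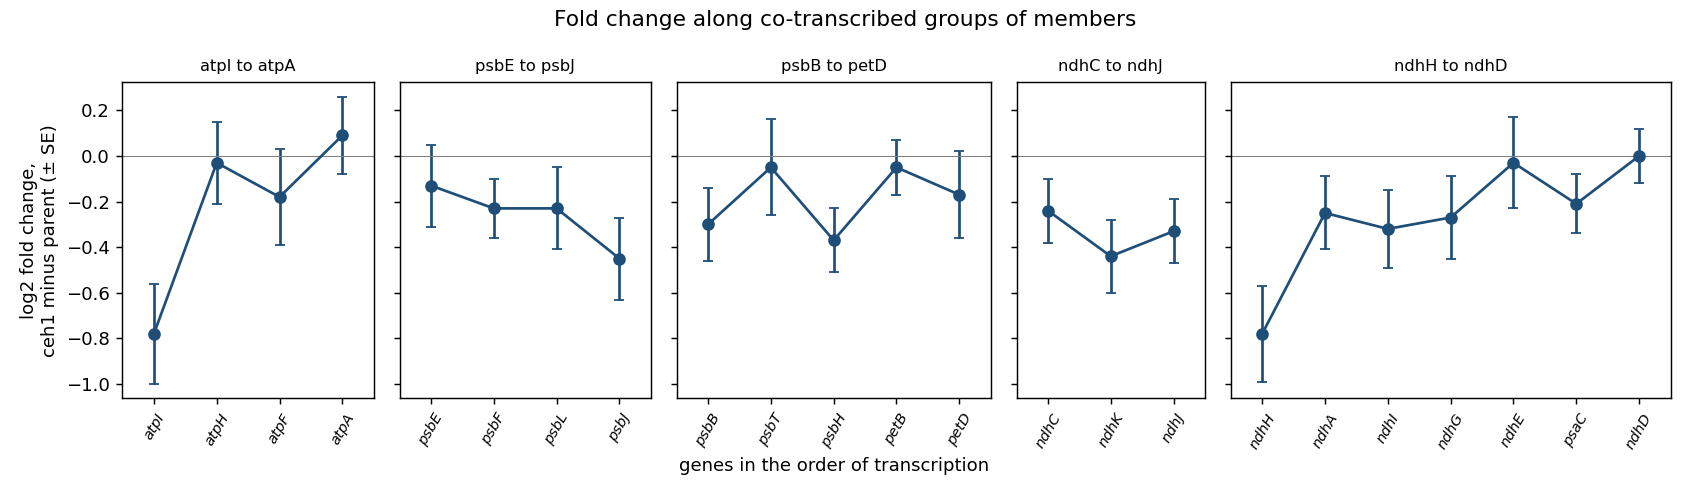
Log2 fold change, ceh1 minus parent, ± SE of limma with 3 arrays per genotype, for members of the 5 transcription units with 3 or more of them, in the order of transcription. The first genes of the atpI and ndhH units are at −0.78, and the last ones, atpA and ndhD, at 0.09 and 0.00, or −0.25 and −0.37 with median scaling.

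With quantile normalization, plastid genes with other symbols, whatever their function, also showed small differences. Of 26 such genes with a single-gene probe set, 0 passed (limma). At an unadjusted p under 0.05, 4 of the 26 were lower and 0 higher, near the background of 11.5% lower. The log2 fold change was below 0 in 22 of them, against 53.3% of all probe sets tested, with a median of −0.27 against −0.17 for the photosynthesis and NDH genes. The 15 ribosomal protein genes had a median of −0.27 and the 4 genes of the plastid RNA polymerase, rpoA, rpoB, rpoC1 and rpoC2, had −0.37. No test was made of the difference between these genes and those of the photosynthetic complexes.

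The nucleus-encoded partners could be followed for few genes. Of 69 nuclear genes for subunits of these complexes, for electron carriers and for light harvesting, 11 had a single-gene probe set. With quantile normalization all 11 were below 0, against 53.3% of all probe sets tested. For AT2G26500 the value rounded to 0, at 0.997-fold of the parent (limma, adjusted p = 0.989), so it showed no measurable fall. Of the 11, 1 passed as lower, against 1.15% of all probe sets tested. That gene was NdhL, which encodes a subunit of NDH, at 10.30, 10.02 and 10.63 in the parent against 9.30, 9.01 and 9.22 in ceh1. It fell by 1.14 in log2 with an adjusted p = 0.0266 (limma). NdhN and NdhS, for other subunits of NDH, had −1.16 and −0.37 and did not pass (limma, adjusted p = 0.102 and 0.313). The other 8, all for photosystem, electron transport, ATP synthase or antenna proteins, had a median of −0.19.

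Of 31 nuclear genes for plastid transcription and for RNA processing or stability, 4 had a single-gene probe set and 0 passed (limma). CRR21, an editing factor for ndhD RNA, had 7.33, 7.40 and 7.41 in the parent against 6.52, 5.66 and 6.92 in ceh1. The arrays of the genotypes did not overlap, and the log2 fold change of −1.01 ± 0.31 (SE) had an adjusted p = 0.127 (limma). CRR28, CRR22 and AT5G15700, a phage-type RNA polymerase gene, had −0.31, −0.12 and −0.13.

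In whole plants, fewer green cells, fewer plastids per cell and less RNA per plastid cannot be told apart. Leaf markers were bright, with log2 signals from 10.65 to 12.96 for the 3 of 6 with a single-gene probe set, RCA, PRK and SBPASE. None of these passed, with log2 fold changes of −0.22, −0.37 and −0.79. Among 7 root markers, 2 had a single-gene probe set. PYK10 had 9.49, 9.83 and 8.62 in the parent against 10.46, 10.62 and 10.50 in ceh1, higher by 1.21 in log2 but short of the threshold (limma, adjusted p = 0.0733), and EXPA7 was below the filter on dim probe sets. The 25S ribosomal RNA control differed by 1.95 in log2 and the 3'-to-5' ratio of actin signal by −0.28, each without overlap of the genotypes (two-sided exact permutation test, p = 0.1, the lowest value that 3 against 3 arrays can give). In log2 that actin ratio was 4.275, 4.459 and 4.282 in the parent against 3.99, 4.081 and 4.094 in ceh1. The 3' signal of actin was thus far above its 5' signal on every array. Standard Affymetrix labelling primes on poly(A), and plastid RNAs carry such tails mainly as a mark for decay; what share of each plastid RNA was primed was not measured. Neither the root marker nor the RNA measures were tested for their part in the plastid values.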

How the data were processed

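Total RNA of 3 parent and 3 ceh1 samples was hybridised to 1-colour Affymetrix arrays. The deposited values are linear probe set intensities made with MAS5, per the submitters' processing notes. The version and the settings of MAS5 were not stated there. Arrays have no read depth, and their number limits the precision. Of 22746 probe sets besides 64 controls, 13513 had a single gene in the platform annotation and 13436 of these matched the TAIR10.1 gene table, used for names and gene order. As no build is named for the array, no coordinates are given.

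Values were transformed as log2(intensity + 2), quantile normalised and filtered at the 30th percentile of the mean (log2 3.80), so fold changes understate those of dim probe sets. Genotypes were compared over 15922 probe sets with limma 3.58.1 in R 4.3.3 (variance trend, two-sided, Benjamini-Hochberg, threshold 0.05), checked on simulated data. Members and lists were chosen with earlier results of these data known. Array values are given for the highest and lowest absolute fold change of each complex, members passing in any setting and preset reaction centre and catalytic genes; ndhJ, ndhK, psbJ, psbM and petG were added after their values were seen. Same-numbered replicates deviated together with correlations of 0.27, 0.06 and 0.47, so numbers were not treated as pairs. Alternatives were other pseudocounts, filters, scalings, variance models, array weights, a replicate block and each array left out.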

Additional observations from a re-analysis of the deposited data

Results flagged for a closer look

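The 25S ribosomal RNA control probe set, which enters no comparison of genes, was higher on every ceh1 array than on every parent array, by 1.95 in log2. The probe set shared by both copies of the plastid ribosomal protein gene rpl2, outside the genes examined because it is paired with more than 1 gene, was likewise above every parent array on every ceh1 array, by 0.17 in log2, without passing the test (limma, adjusted p = 0.504), and 12.4% of all probe sets tested separated in that direction.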

How the results depend on the processing

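Of the 43 genes, 0 passed with pseudocounts of 1 and 8, with no filter or one at the 50th percentile, without normalization, with median scaling and without a variance trend; 3 passed with array weights, where 1815 probe sets passed in all, and 1, atpI, with the replicate block (limma, adjusted p = 0.0438), where 1160 passed in all, 3.03% of those tested being lower. Over all probe sets, 569 and 655 passed with pseudocounts of 1 and 8, against 600 in the main fit. With no filter 524 passed, and without a variance trend 489. Without normalization 718 passed, and with median scaling 696. The filter at the 50th percentile gave 384 in all and left out ndhF. With arrays left out, the count over all probe sets ran from 152 to 676, at 168, 152, 296 and 175 without parent replicates 1 and 2 and ceh1 replicates 2 and 3, and that of members from 0 to 1, the latter being ndhH without ceh1 replicate 2. With median scaling the median over members was −0.39, and it was −0.39 for photosystem I, −0.35 for photosystem II, −0.14 for cytochrome b6f, −0.43 for ATP synthase, −0.43 for NDH and −0.32 for Rubisco. Without normalization cytochrome b6f had 0.13, NDH −0.16 and Rubisco −0.05, and with array weights photosystem II had −0.20. With arrays left out the median ran from −0.24 to −0.11 over members, from −0.13 to −0.05 for photosystem I, −0.26 to −0.10 for photosystem II, −0.06 to 0.05 for cytochrome b6f, −0.14 to −0.03 for ATP synthase, −0.35 to −0.24 for NDH and −0.26 to −0.12 for Rubisco. The cause of these shifts was not tested. The comparison of bright members with other bright probe sets was chosen after seeing the data. The planned exclusion of probe sets of a cross-binding kind was not run, since no member has one. The limit is 3 arrays per genotype.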
